A study of Mus musculus with 20 samples.

Results

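The genes described here build the outer segment of rods and cones and the matrix around it: *Prph2*, *Rom1*, *Prom1*, *Cdhr1*, *Rp1*, *Rp1l1*, *Impg1*, *Impg2*, *Fscn2* and *Tulp1*. They were taken by name, and each had exactly 1 probe set whose only gene symbol in the platform annotation was that name, so the members are 10 of the 19938 genes that have such a probe set, among 35557 probe sets on the array. RNA came from C57BL/6 mice of 7 to 8 weeks, with no transgene or deletion named in the labels. Dark-adapted animals had spent 3 h in a chamber of at most 0.4 lux and light-adapted ones 6 h in a room lit at 450 lux. In each state 5 tissues were measured: the whole retina, and 4 layers (photoreceptor, which by the sample names holds the outer nuclear layer with both segments, inner nuclear, inner plexiform and ganglion cell), each cut by laser capture microdissection. Each of the 10 combinations has 2 arrays, 20 in all, and the labels name neither the animals behind an array nor their number. A p-value here therefore reflects how far the arrays of a group differ, whether by animal or by technique. In the main limma fit used below, each gene has a single estimate of this spread, shared by all 10 groups. Arrays outside a comparison thus also bear on its standard error, interval and p-value.

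The outer segment is a modified cilium filled with a stack of membrane discs that hold the visual pigment. Its discs are renewed from the base, where the plasma membrane folds out, flattens and, in rods, closes off into a disc with a sharply curved rim. An axoneme of microtubules runs alongside the stack, and the space between outer segment and pigment epithelium is filled by the interphotoreceptor matrix. Mutations of most of these genes are known causes of retinitis pigmentosa, cone-rod dystrophy or macular dystrophy in humans.

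All 10 probe sets passed the filter on dim signal, and their intensities lay between 18.0 and 1095.8, above the floor of 8 that was set before taking log2. Median intensity per array was 37.5 to 40.8. The photoreceptor layer carried its own markers: of 12 rod markers tested, 12 were higher there than in the mean of the other 3 layers, with a summed intensity of 9878.5 to 10625.5 on the photoreceptor layer arrays against 1330.0 to 3772.3 on the 12 arrays of the inner nuclear, inner plexiform and ganglion cell layers. None of the markers of bipolar, amacrine, horizontal, Müller glia or ganglion cells was higher in it. Pigment epithelium markers, whose cells touch the outer segment tips, summed to 541.2 to 620.9 in the photoreceptor layer and 404.7 to 581.8 in the 3 inner layers, with 1 of 9 tested markers higher. There are 2 sets of arrays that stand apart. Probe sets of chromosome Y had a median intensity of 192.25 to 306.2 on 5 light-adapted arrays (replicate 1 of whole retina, photoreceptor and inner nuclear layer, and both of the ganglion cell layer) and of 8.6 to 25.05 on the other 15. The light-adapted inner plexiform layer arrays differed from the dark-adapted ones in 1.83% of all genes, more than in any other tissue. For the comparisons between tissues, and for adaptation where arrays of both states remain, the outcome without each set is given as well.

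Promoter windows show the start-site regions of the members, whose layer patterns are given below. RefSeq windows (GRCm38.p6) were found for 8 of the 10 genes; *Rp1* and *Rp1l1* had none in the table used. The 250 bases before the start were searched on both strands for TAATCC, the core of the site of the photoreceptor homeobox factor CRX, and for TGCTGA, part of the site of the rod factor NRL. No window of the 8 genes held either sequence, which were present in windows of 7.21% and 18% of all genes. The shorter TAATC, which lies within TAATCC and was added after the windows were seen, was found in 4 of the 8 genes and in 22.3% of all genes. A match is only a string of letters, and its absence says nothing of the factor. The windows given are those of *Prph2* and *Impg1* with 2 matches each, and *Rom1* and *Fscn2* with none, since they span the strongest and the weakest layer differences. The sequences run 5′ to 3′ on the strand of the gene and end at the base before the start, with TAATC or its reverse complement GATTA in capitals. *Prph2* lies on the plus strand at chr17:46910228-46910477, *Impg1* on the minus strand at chr9:80465439-80465688, *Rom1* on the minus strand at chr19:8929357-8929606 and *Fscn2* on the plus strand at chr11:120361284-120361533.
Prph2: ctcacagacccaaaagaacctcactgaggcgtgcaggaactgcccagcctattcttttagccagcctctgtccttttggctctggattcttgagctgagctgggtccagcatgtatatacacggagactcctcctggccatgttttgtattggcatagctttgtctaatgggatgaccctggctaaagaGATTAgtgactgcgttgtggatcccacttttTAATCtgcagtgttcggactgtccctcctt
Impg1: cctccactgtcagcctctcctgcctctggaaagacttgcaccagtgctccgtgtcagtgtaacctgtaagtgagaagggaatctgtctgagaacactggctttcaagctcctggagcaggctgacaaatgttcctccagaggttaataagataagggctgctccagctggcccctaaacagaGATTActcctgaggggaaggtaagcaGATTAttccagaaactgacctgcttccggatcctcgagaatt
Rom1: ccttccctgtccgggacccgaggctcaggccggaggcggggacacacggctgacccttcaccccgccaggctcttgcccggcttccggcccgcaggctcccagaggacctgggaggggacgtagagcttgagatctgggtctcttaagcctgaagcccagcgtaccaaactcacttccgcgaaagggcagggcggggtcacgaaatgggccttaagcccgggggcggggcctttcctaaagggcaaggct
Fscn2: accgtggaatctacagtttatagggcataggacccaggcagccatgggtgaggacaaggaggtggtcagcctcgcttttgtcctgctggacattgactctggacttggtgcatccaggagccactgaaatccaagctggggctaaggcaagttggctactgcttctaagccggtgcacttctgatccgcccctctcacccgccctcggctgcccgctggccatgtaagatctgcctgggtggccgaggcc

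How far the transcripts of the outer segment are enriched where photoreceptors lie was asked by setting the photoreceptor layer against the mean of the other 3 layers. In a limma fit over 15057 genes, 9 of the 10 genes were higher in the photoreceptor layer (Benjamini-Hochberg adjusted p under 0.05), against 7.26% of all genes called higher. The median difference over the 10 genes was 2.45 on the log2 scale, and over all genes -0.06. On the arrays themselves the same 9 genes were above all 12 inner-layer arrays on all 4 photoreceptor layer arrays, which held for 3.49% of all genes. The exception by both measures was *Fscn2*. Against single layers, 9 genes were higher than in the inner nuclear layer (4.07% of all genes called higher), 9 than in the inner plexiform layer (9.68%) and 9 than in the ganglion cell layer (4.57%). These comparisons share the photoreceptor layer arrays. All 1080 values of these 9 genes in the 4 comparisons, over every alternative and left-out array, kept their direction and call, with a lowest difference of 1.37 and a highest adjusted p of 0.0078 in limma.

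**Figure D1:**
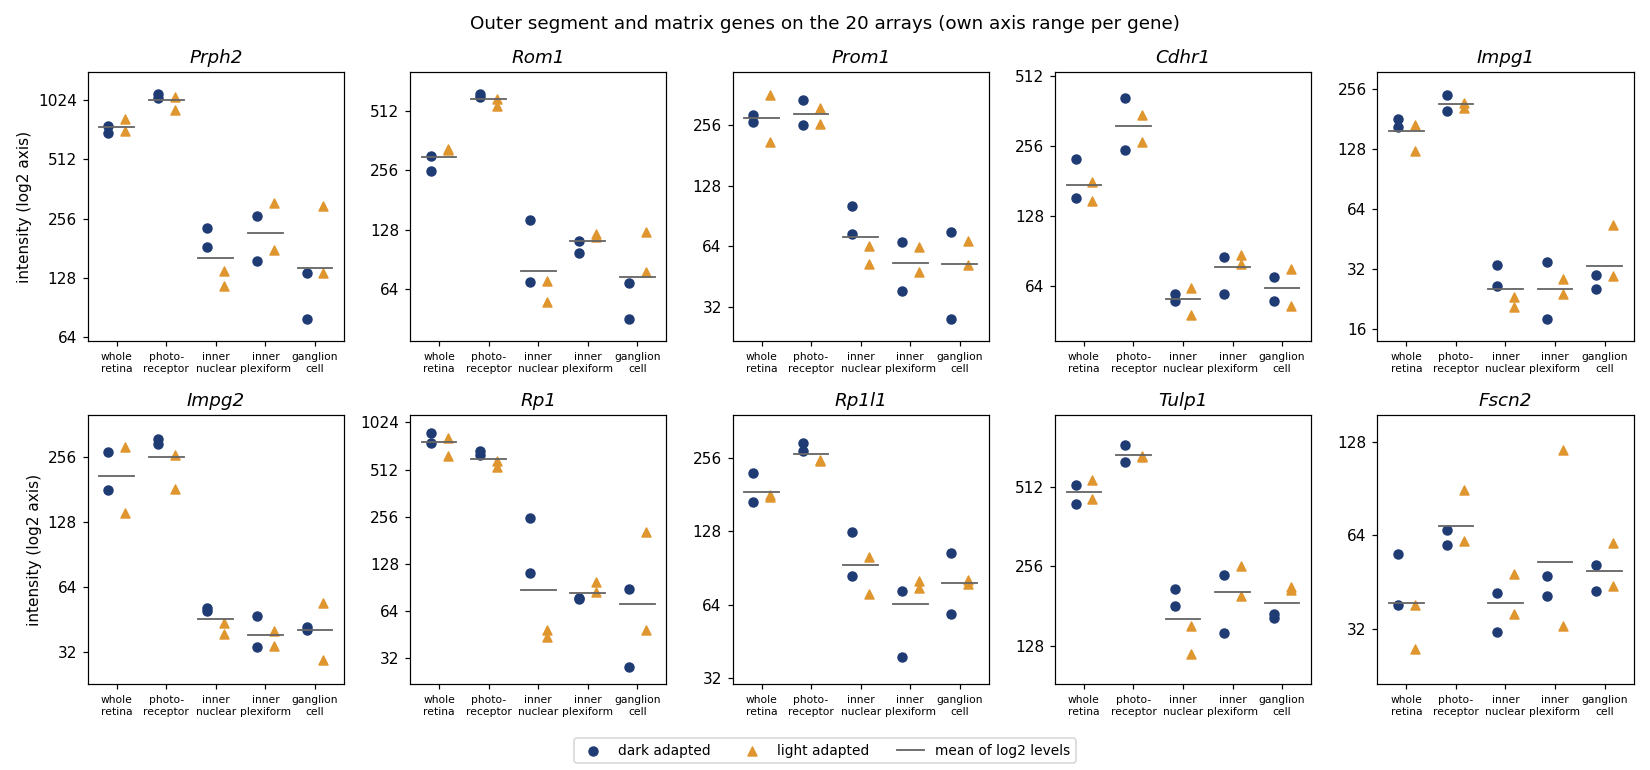
Intensity of the 10 genes on all 20 arrays, with a log2 axis whose range differs between panels; points are arrays (dark-adapted to the left of light-adapted) and grey lines the mean of the log2 levels of a tissue. Whole retina and photoreceptor layer stand above the 3 inner layers for every gene but *Fscn2*.

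*Prph2* and *Rom1* encode the tetraspanins that join into complexes at the disc rim and hold its curvature. *Prph2* had intensities of 1095.8 and 1051.6 on the dark-adapted and 914.6 and 1060.8 on the light-adapted photoreceptor layer arrays, against a lowest value of 79.3, a median of 167.35 and a highest of 307.7 on the 12 inner-layer arrays. The groups were far apart. Its difference from the mean of the other 3 layers was 2.58 ± 0.20 on the log2 scale (standard error, adjusted p = 2.5e-07, limma), a 5.97-fold higher level. *Rom1* had 599.0 and 618.9 on the dark-adapted and 537.7 and 584.6 on the light-adapted arrays of the photoreceptor layer, against 45.1, 87.5 and 142.5 as lowest, median and highest on the inner-layer arrays. Again no inner-layer array came near the photoreceptor layer. Layer by layer *Rom1* was higher by 2.89 ± 0.21 than in the inner nuclear, by 2.39 ± 0.21 than in the inner plexiform and by 2.98 ± 0.21 than in the ganglion cell layer. For *Prph2* these log2 differences were 2.67, 2.24 and 2.83, each ± 0.25. For both genes the smallest of the 3 was that from the inner plexiform layer.

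*Prom1* and *Cdhr1* act where new discs form: prominin-1 sits in the membrane folds at the base of the outer segment and binds the photoreceptor cadherin that *Cdhr1* encodes. *Prom1* had 257.7 and 343.4 on the dark-adapted and 259.7 and 311.7 on the light-adapted photoreceptor layer arrays, against 28.0 to 101.9 with a median of 64.0 on the inner-layer arrays. *Cdhr1* had 410.9 and 246.4 on the dark-adapted and 266.7 and 346.8 on the light-adapted photoreceptor layer arrays, against 47.9 to 87.0 with a median of 60.7. Both were higher on every photoreceptor layer array, but *Cdhr1* spread more within that layer than the rim genes, by 1.67 times from lowest to highest. The log2 difference from the mean of the other layers was 2.32 ± 0.22 for *Prom1* (adjusted p = 2e-06, limma) and 2.27 ± 0.17 for *Cdhr1* (1e-07).

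*Impg1* and *Impg2* encode the hyaluronan-binding proteoglycans of the interphotoreceptor matrix, a secreted and a membrane-spanning one. *Impg1* had 239.4 and 197.3 on the dark-adapted and 205.7 and 216.7 on the light-adapted photoreceptor layer arrays, against 18.0, 27.35 and 53.2 as lowest, median and highest on the inner-layer arrays. *Impg2* had 310.3 and 296.3 on the dark-adapted and 183.2 and 262.4 on the light-adapted photoreceptor layer arrays, against 29.3, 41.15 and 53.8. The level of *Impg1* was 7.71-fold that of the mean of the other 3 layers (adjusted p = 1.4e-08, limma). Of the 10 genes it had the largest such difference under 24 of the 31 settings tried, and *Rp1* under the other 7. How far dim inner-layer signal bears on this rank was not tested. The inner-layer median of *Impg1*, 27.35, was below the median intensity of an array (37.5 to 40.8). The differences of *Impg1* from single layers were 3.07 ± 0.21 from the inner nuclear, 3.07 ± 0.21 from the inner plexiform and 2.70 ± 0.21 from the ganglion cell layer. *Impg2* was higher than the mean of the other layers by 2.64 ± 0.19 (adjusted p = 9.1e-08, limma).

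*Rp1* and *Rp1l1* encode doublecortin-domain proteins that bind the axoneme microtubules, and *Rp1* is needed for discs to stack in line. *Rp1* had 634.3 and 668.5 on the dark-adapted and 532.5 and 577.1 on the light-adapted photoreceptor layer arrays, against 28.3, 81.1 and 250.8 as lowest, median and highest on the inner-layer arrays. No other of the 10 genes varied as much among the inner-layer arrays, by 8.86 times from lowest to highest, yet the groups did not overlap. Its log2 difference was 2.90 ± 0.31 (adjusted p = 5.5e-06, limma), or 7.47-fold. *Rp1l1* had 274.8 and 296.6 on the dark-adapted and 251.4 and 248.3 on the light-adapted photoreceptor layer arrays, against 39.2, 78.95 and 127.1. Its log2 difference was smaller, 1.78 ± 0.18 (2.7e-06), and the 95% intervals of the differences of *Rp1* (2.26 to 3.55) and *Rp1l1* (1.41 to 2.15) did not overlap.

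*Tulp1* encodes a tubby-like protein that helps carry proteins to the outer segment, and *Fscn2* an actin-bundling fascin of photoreceptors. *Tulp1* had 738.4 and 634.0 on the dark-adapted and 666.1 and 672.2 on the light-adapted photoreceptor layer arrays, against 118.5, 188.95 and 255.9 as lowest, median and highest on the inner-layer arrays. It was higher by 1.89 ± 0.13 (adjusted p = 6.5e-08, limma), or 3.70-fold. *Fscn2* had 59.6 and 66.8 on the dark-adapted and 61.2 and 89.9 on the light-adapted photoreceptor layer arrays, against 31.3, 43.15 and 120.7 on the inner-layer arrays. The groups overlapped: replicate 1 of the light-adapted inner plexiform layer was the highest of all 20 arrays at 120.7, and replicate 2 of the light-adapted ganglion cell layer, at 60.3, was above the lowest photoreceptor layer array. The *Fscn2* difference of 0.56 ± 0.25 did not pass (adjusted p = 0.15, unadjusted 0.036, limma, 95% interval 0.04 to 1.08). Of 29 alternatives and left-out arrays, 27 kept that outcome, with a lowest difference of 0.40 and a highest adjusted p of 0.45 in limma. The 2 that passed both drop the array with the highest value. The difference was 0.72 ± 0.17 (adjusted p = 0.0094) without replicate 1 of the light-adapted inner plexiform layer, and 0.65 ± 0.17 (adjusted p = 0.022) without both light-adapted arrays of that layer.

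**Figure D2:**
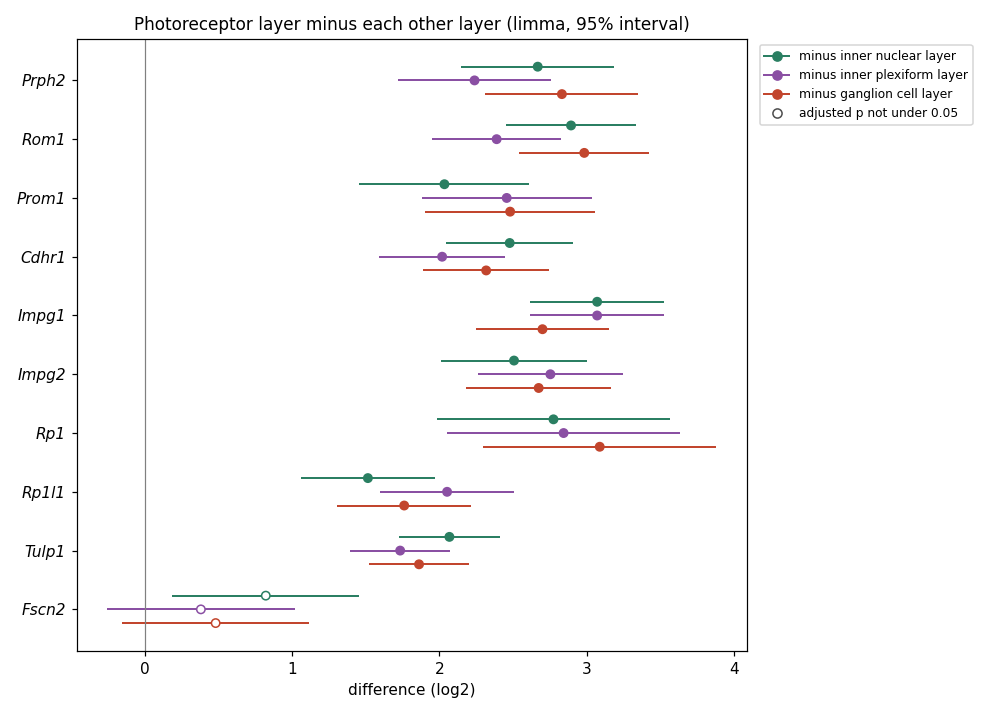
Log2 difference of the photoreceptor layer from each of the other layers for the 10 genes, with 95% intervals from limma; filled points have an adjusted p under 0.05. Of the 10 genes 9 lie to the right of 1 in all 3 comparisons and the 3 values of *Fscn2* lie between 0.38 and 0.82.

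Without the 5 arrays with chromosome Y signal the same 9 genes remained higher in all 4 comparisons; in that fit the ganglion cell layer is represented by its dark-adapted arrays alone. Leaving out both light-adapted arrays of the inner plexiform layer, these 9 also remained, and *Fscn2* passed as well against the inner nuclear layer and the mean of the 3 layers.

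Across the 10 group means 9 of the genes followed each other closely. Each of these 9 had a Pearson correlation of 0.950 to 0.990 with the mean of the other members over the 10 groups, while *Fscn2* had 0.294. These are descriptions, and the groups share the contrast between tissues with and without photoreceptors. The genes outside the set most like its mean profile, over the same 10 groups, were the rod phosphodiesterase subunit gene *Pde6g* (r = 0.996), *Rcvrn* encoding recoverin (0.994), the rod sodium-calcium-potassium exchanger gene *Slc24a1* (0.993), *Rgs9*, whose product speeds transducin shut-off (0.992), and the orphan nuclear receptor gene *Esrrb* (0.989).

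Signal of the 9 genes did not vanish from the inner layers, and there it varied between arrays. The mean log2 level of the 10 genes was highest on replicate 2 of the light-adapted ganglion cell layer (6.66), then on the dark-adapted replicate 2 of the inner nuclear layer (6.49), and lowest on dark-adapted replicate 2 in the ganglion cell layer (5.61). The summed rod markers had the same leading arrays, with 3772.3 and 3327.2, against 1330.0 to 2492.0 on the other 10 inner-layer arrays, and 1607.7 on the array with the lowest mean. The array ranked 3 by the 10 genes, replicate 1 of the light-adapted inner plexiform layer (6.44), was ranked 7 by rod markers (1930.0) and held the high *Fscn2* value. In bulk samples a different share of cells and a different RNA content per cell cannot be told apart, and the part of rod transcripts from other layers in these values was not tested.

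**Figure D3:**
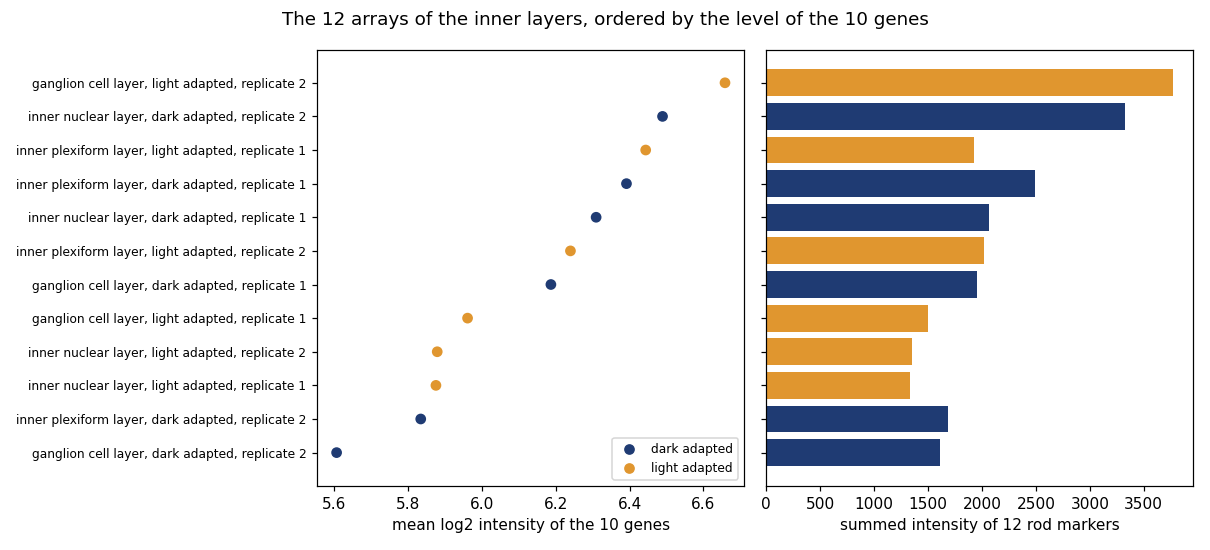
Mean log2 intensity of the 10 genes (left) and summed intensity of 12 rod markers (right) on the 12 arrays of the inner nuclear, inner plexiform and ganglion cell layers, ordered by the left panel. The same 2 arrays lead in both panels, at 6.66 and 6.49 and at 3772.3 and 3327.2.

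Between the inner layers no gene of the set passed. In limma 0 of 10 passed for the inner nuclear against the inner plexiform layer (4.85% of all genes called), 0 of 10 for the inner nuclear against the ganglion cell layer (0.458% called) and 0 of 10 for the inner plexiform against the ganglion cell layer (3.1% called). At an unadjusted p under 0.05 there were 3 of the 10 genes between inner nuclear and inner plexiform layer (20.9% of all genes), 0 between inner nuclear and ganglion cell layer (7.31%) and 2 between inner plexiform and ganglion cell layer (19.4%). The largest differences were those of *Rom1* and *Prph2*, with levels in the inner plexiform above the ganglion cell layer by 0.59 ± 0.21 (adjusted p = 0.12) and 0.59 ± 0.25 (adjusted p = 0.19). *Rom1* had 111.6 and 97.0 on the dark-adapted and 122.1 and 117.4 on the light-adapted inner plexiform layer arrays, against 68.3 and 45.1 and 78.0 and 124.2 in the ganglion cell layer. Of the ganglion cell layer arrays 3 were lower, and 1 was higher than any in the inner plexiform layer. After adjustment the order of the 3 inner layers was not resolved for any of the 10 genes, whose 95% intervals at their widest reached from -1.08 to 1.11 on the log2 scale.

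The whole retina was set against the photoreceptor layer to see how the levels of these transcripts compare in undissected tissue. Only the layers were laser-captured, so the mix of cells and the way the tissue was taken cannot be told apart here. Of the 10 genes 9 had a negative log2 difference, with a median of -0.47 against -0.13 over all genes. In limma 2 passed as lower in the whole retina, *Rom1* and *Cdhr1*, with 3.44% of all genes called lower, and 0 passed as higher, with 6.97% of all genes called higher. *Rom1* had 253.3 and 300.6 on the dark-adapted and 327.0 and 322.7 on the light-adapted whole retina arrays, all below the lowest photoreceptor layer array at 537.7. The difference was -0.96 ± 0.21 (adjusted p = 0.011, limma), so the whole retina had 0.512 times the photoreceptor layer's level. *Cdhr1* had 153.1 and 224.3 on the dark-adapted and 148.0 and 178.9 on the light-adapted whole retina arrays, again all below the photoreceptor layer, where the lowest was 246.4, with a difference of -0.84 ± 0.20 (adjusted p = 0.018). Both calls were lost without replicate 2 of the light-adapted whole retina, which left 0 of 10. The call of *Cdhr1* was also lost, leaving 1, without the chromosome Y arrays and when any of 3 single arrays was left out: light-adapted replicate 2 or dark-adapted replicate 1 from the photoreceptor layer, or dark-adapted replicate 1 from the whole retina. With only the arrays of these tissues in the fit 7 passed as lower, and with a replicate block 4.

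*Rp1* alone had a positive difference. It had 752.1 and 882.2 on the dark-adapted and 629.5 and 813.6 on the light-adapted whole retina arrays, against 532.5 to 668.5 on the photoreceptor layer arrays, so the groups overlapped. The difference of 0.35 ± 0.37 did not pass (adjusted p = 0.53, limma, 95% interval -0.45 to 1.14). *Prom1*, with 286.7 and 266.3 and 211.2 and 362.8 in the whole retina against 257.7 to 343.4 in the photoreceptor layer, had -0.07 ± 0.27. Levels of *Prph2* (752.9, 700.7, 710.0 and 822.7), *Tulp1* (518.2, 438.6, 541.5 and 458.3), *Impg1* (164.3, 179.7, 124.9 and 168.3) and *Rp1l1* (222.0, 169.8, 177.1 and 181.3) on the whole retina arrays were all below the lowest photoreceptor layer array of the same gene. Their differences of -0.44 to -0.52 did not pass (adjusted p = 0.21 for *Prph2*, 0.068 for *Tulp1*, 0.18 for *Impg1* and 0.12 for *Rp1l1*). *Impg2* had 180.0, 271.3, 140.5 and 286.6, which overlapped the photoreceptor layer, and a difference of -0.29 ± 0.23. *Fscn2* had 38.2, 55.6, 38.3 and 27.5, all below the lowest photoreceptor layer array at 59.6, with -0.82 ± 0.30 (adjusted p = 0.085). Its medians of 38.25 in the whole retina and 43.15 on the inner-layer arrays were near the median intensity of an array (37.5 to 40.8). Whether its dim signal bears on its weak layer difference was not tested. In all, 7 of the 10 genes had 4 photoreceptor layer arrays above all 4 whole retina arrays, which held for 14% of all genes, the exceptions being *Prom1*, *Rp1* and *Impg2*. All 4 whole retina arrays were above all 12 inner-layer arrays for 9 genes, all but *Fscn2*, and for 9.35% of all genes.

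**Figure D4:**
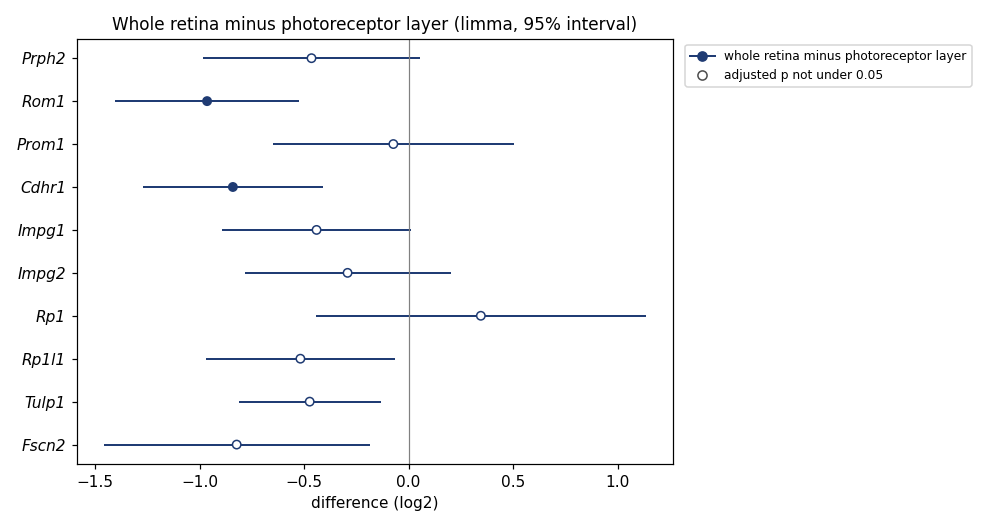
Log2 difference of the whole retina from the photoreceptor layer for the 10 genes with 95% intervals from limma; filled points, *Rom1* and *Cdhr1*, have an adjusted p under 0.05. The values run from -0.96 for *Rom1* to 0.35 for *Rp1*.

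Ratios between members on the same array were compared between the whole retina and the photoreceptor layer, a test added after the values were seen. Over 45 pairs of genes 0 passed after adjustment over the pairs (smallest adjusted p = 0.107, two-sided exact permutation test, n = 4 against 4), and 12 reached an exact p of 0.0286, the smallest that 4 against 4 arrays can give. With that limit no pair can pass unless many reach it together, so the test could hardly decide for single pairs. The widest of these was the ratio of *Rom1* to *Rp1*, whose log2 value was -1.35 ± 0.29 in the whole retina and -0.04 ± 0.07 in the photoreceptor layer (SD, n = 4 each). These genes also had the lowest and highest single-gene differences above, at -0.96 and 0.35.

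Whether adaptation to dark or light moves these transcripts was asked in each tissue. In limma 0 of the 10 genes passed in the average over the 5 tissues (0 at an unadjusted p under 0.05, with 0.0133% of all genes called), and their differences lay between -0.12 and 0.21. In the photoreceptor layer 0 of 10 passed (0 unadjusted, 0.0465% of all genes called). There 9 genes had a positive difference, with a median of 0.09 over the 10 genes and 0.001 over all genes. The largest was that of *Impg2* at 0.47 ± 0.33 (95% interval -0.23 to 1.16, adjusted p = 1). Its dark-adapted arrays at 310.3 and 296.3 stood above the light-adapted ones at 183.2 and 262.4. Without the chromosome Y arrays its difference was 0.21 ± 0.30. Both dark-adapted arrays were above both light-adapted ones for 4 of the 10 genes (*Impg2*, *Rp1*, *Rp1l1* and *Rom1*), and for 16.1% of all genes. The 95% intervals of these differences varied in width between genes, from -0.45 to 0.51 for *Tulp1* up to -0.89 to 1.35 for *Rp1*. Their width comes from the spread shared by all groups, not from this layer alone. The SD of the log2 levels of *Rp1* was 0.146 in the photoreceptor and 0.164 in the inner plexiform layer. It was 1.17 in the inner nuclear and 1.23 in the ganglion cell layer. In the whole retina 0 of 10 passed (0 unadjusted, 0.0266% called), with differences of -0.24 to 0.51.

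In the inner nuclear and ganglion cell layers the differences were wider, and their medians ran in opposite directions. Since 9 of the genes followed each other closely over the groups, a count of genes with the same sign is not a count of independent results. In the inner nuclear layer 9 of 10 genes had a positive dark minus light difference (median 0.49, and -0.02 over all genes), of which 0 passed, with 0% of all genes called. At an unadjusted p under 0.05 there were 3 of the 10, and 3.14% of all genes. *Rp1* had 111.3 and 250.8 on the dark-adapted arrays there, against 48.5 and 44.0 on the light-adapted ones, a difference of 1.85 ± 0.53 (unadjusted p = 0.0028, adjusted p = 1, limma), and of 1.92 ± 0.54 (adjusted p = 1) without the chromosome Y arrays. In the ganglion cell layer 9 of 10 differences were negative (median -0.35, and 0.01 over all genes), with 0 passing and 0.00664% of all genes called. Both light-adapted arrays of that layer carried chromosome Y signal and neither dark-adapted one did. Adaptation and that signal cannot be told apart there. At an unadjusted p under 0.05 there were 2 of the 10, and 4.08% of all genes. *Prph2* had 136.2 and 79.3 on the dark-adapted arrays of that layer, against 135.5 and 298.0 on the light-adapted ones, so the groups overlapped (-0.95 ± 0.35, adjusted p = 1). In the inner plexiform layer 9 were negative as well (median -0.22, and -0.03 over all genes, 0 passing, 0 unadjusted, 1.83% called). In the inner nuclear and ganglion cell layers the rod markers' mean differed in the same direction. They summed to 2066.5 and 3327.2 on the dark-adapted inner nuclear layer arrays against 1330.0 and 1350.6 on the light-adapted ones, and to 1955.5 and 1607.7 on the dark-adapted ganglion cell layer arrays against 1502.0 and 3772.3 on the light-adapted ones. In the inner plexiform layer they did not, with 2492.0 and 1685.3 on the dark-adapted arrays against 1930.0 and 2018.2 on the light-adapted ones. Their part in the differences was not tested. A moderated F test of whether the dark effect differed between the 5 tissues gave 0 of 10 (0.0266% of all genes called), with the smallest unadjusted p for *Rp1* at 0.021 (adjusted p = 0.75). The enrichment of the photoreceptor layer over the other 3 layers was compared between dark and light in the same fit. Here 0 of 10 passed (0 unadjusted, 0.0398% called) and the differences were 0.02 to 0.32, with 95% intervals of -1.27 to 1.31 at the widest.

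**Figure D5:**
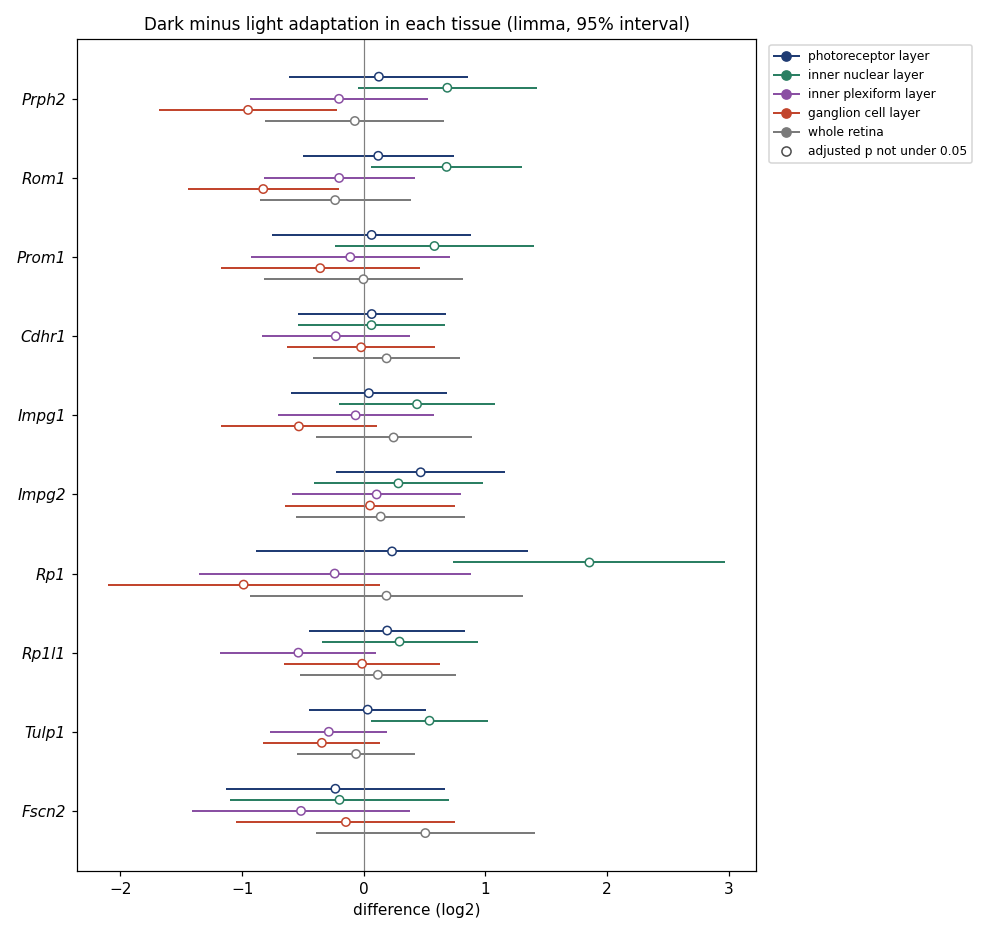
Dark minus light difference on the log2 scale for the 10 genes in each of the 5 tissues, with 95% intervals from limma; all points are open, as none has an adjusted p under 0.05. The largest value is that of *Rp1* in the inner nuclear layer at 1.85, and in the photoreceptor layer all 10 lie between -0.23 and 0.47.

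Other genes of the outer segment gave a frame for these values. Of 15 tested genes of the outer segment membrane 13 were higher in the photoreceptor layer than in the mean of the other 3 layers, with a median log2 difference of 1.96, where 7.26% of all genes were called higher. By smallest p they were led by the exchanger gene *Slc24a1* (2.59 ± 0.13), *Guca1a* (2.95 ± 0.19), whose product activates guanylate cyclase at low calcium, the retinal transporter *Abca4* of the disc rim (2.81 ± 0.23) and the cyclase *Gucy2f* (3.40 ± 0.28). In the whole retina 4 of these 15 were lower than in the photoreceptor layer (3.44% of all genes), named here after their values were seen. The disc protein gene *Prcd* had -1.01 ± 0.16 (adjusted p = 0.0025, limma), *Cngb1*, whose product links the plasma membrane to the disc rim, -0.65 ± 0.17 (0.023), the retinol dehydrogenase gene *Rdh8* -0.62 ± 0.17 (0.03) and *Slc24a1* -0.61 ± 0.17 (0.028). The count was 2 without the chromosome Y arrays, or leaving out light-adapted replicate 1 from the photoreceptor layer. It was 1 without any of the other 3 photoreceptor layer arrays, either dark-adapted whole retina array or replicate 2 of the light-adapted whole retina.

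Of 14 tested genes of the ciliary axoneme and disc morphogenesis 10 were higher in the photoreceptor layer (median 1.40, 7.26% of all genes). *Fam161a* (2.17 ± 0.18), *Arl3* (1.85 ± 0.17), *Pcare* (adjusted p = 1.1e-06, limma) and *Unc119* (2.14 ± 0.20) had the smallest p; *Pcare* drives the membrane outgrowth that begins a disc, and *Arl3* releases lipid-modified cargo from *Unc119*. In the whole retina 2 of the 14 were higher than in the photoreceptor layer (6.97% of all genes), the connecting cilium gene *Cep290* by 1.22 ± 0.27 (adjusted p = 0.013, limma) and the retinitis pigmentosa GTPase regulator *Rpgr* by 1.40 ± 0.39 (adjusted p = 0.034). Both were named after their values were seen. Neither passed without replicate 2 of the light-adapted whole retina, 1 of the 2 passed without any other single whole retina array of the dark-adapted state or any photoreceptor layer array, and 7 of the 14 passed with only the arrays of these tissues in the fit.

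Of 8 tested genes of the matrix and cell surface, against 7.26% of all genes called higher and 5.69% lower, 1 was higher in the photoreceptor layer, *Rbp3*, the retinoid carrier of the matrix (3.46 ± 0.38), and 1 was lower, the metalloproteinase inhibitor *Timp3* (-0.66 ± 0.19, adjusted p = 0.03, limma), a call lost without any single photoreceptor layer array. The median was -0.22. The hyaluronan synthase gene *Has3* had -0.53 ± 0.22 and the brevican gene *Bcan* -0.42 ± 0.19 (adjusted p = 0.13 and 0.17). In the whole retina 1 of the 8 passed, where 6.97% of all genes were called higher: *Efemp1*, higher than in the photoreceptor layer (1.00 ± 0.30, adjusted p = 0.042) and named after its value was seen. No gene of this list passed there without any single photoreceptor layer array, without either dark-adapted whole retina array or without replicate 2 of the light-adapted whole retina.

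Of 13 tested paralogues of the members 1 was higher in the photoreceptor layer (7.26% of all genes) and 2 were lower (5.69%), with a median of -0.17. *Tub*, the founding tubby gene, was higher by 0.60 ± 0.12 (adjusted p = 0.0029, limma; 0.068 without the chromosome Y arrays), against 1.89 ± 0.13 for *Tulp1*. *Fscn1*, the fascin of many neurons and other cells, was lower by -0.80 ± 0.13 (adjusted p = 0.00044), where *Fscn2* had 0.56 ± 0.25. *Dcdc2a*, a doublecortin-domain gene, had -0.39 ± 0.11 (adjusted p = 0.025), a call lost without any single photoreceptor layer array. *Dclk1*, a doublecortin-like kinase gene, had -0.56 ± 0.18 (adjusted p = 0.053). The count of 3 was 1 without the chromosome Y arrays, and 5 with a replicate block or without replicate 2 of the light-adapted inner plexiform layer. Over the 5 tissues 0 of these genes, in any of the 4 lists, passed between dark and light adaptation in limma.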

How the data were processed

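Total RNA of 20 samples was made into biotin-labelled cRNA by a labelling protocol with 2 amplification cycles and hybridised to Affymetrix arrays, per the labels. The authors' processing used GCRMA, per the submitters' processing notes, a method that corrects background by probe sequence, normalises arrays and gives 1 value per probe set (version not given in the sources used here). The deposited table holds linear intensities, as its values show. A floor of 8 was applied before log2; 11.3% to 14.1% of an array's values lay under 8. Of 21789 probe sets with 1 gene symbol (1621 had several and 12147 were not listed), symbols were updated by gene ID through RefSeq, 16444 had log2 over 5 on at least 2 arrays, and the highest-mean probe set of each gene gave 15057 genes. limma 3.58.1 (R 4.3.3) was fitted once to all 20 arrays with a mean per group and an intensity trend, without a block. Tests are two-sided, with Benjamini-Hochberg adjustment over all genes. The fit was tested on simulated data. The members, the gene lists and the tests were chosen with earlier results of these data known. Named genes are the members, up to 4 genes per list by smallest p, genes against their list's direction, and the 5 genes of highest correlation with the members' mean profile; list genes of the whole retina comparison were picked with their values known. Alternatives are given in the closing section. The number of arrays limits the precision. Replicate numbers paired no samples by the labels.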

Additional observations from a re-analysis of the deposited data

Results flagged for a closer look

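One value lay far from the other arrays of its tissue by Dixon's criterion at the 95% level. *Rp1l1* had an intensity of 39.2 on replicate 2 of the dark-adapted inner plexiform layer, against 72.9 to 80.2 on the other 3 arrays of that layer. Of 50 sets of 4 arrays (10 genes in 5 tissues) 1 was marked, where chance marks about 1 in 20.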

How the results depend on the processing

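The 9 genes other than *Fscn2* kept direction and call in the 4 photoreceptor layer comparisons under every alternative run. *Fscn2* passed in some, so 9 or 10 genes were called. Of 2332 values of single genes between dark and light, 1 gained a call: *Fscn2* in the inner plexiform layer without replicate 2 of its light-adapted arrays, which took the count there to 0 to 1 over the arrays left out, against 0. For the inner nuclear against the inner plexiform layer the count of 0 ranged over 0 to 1 with single arrays left out. For the whole retina against the photoreceptor layer the count of 2 was 7 with only the arrays compared, 4 with a replicate block, 1 without the chromosome Y arrays and 0 to 3 with single arrays left out. The cause was not tested. No direction of a called value reversed. Numbers of called genes overall moved more: 204 to 2938 against 1568 for the whole retina, and 4 to 781 against 276 for dark and light in the inner plexiform layer. Same-number deviations correlated at 0.0059 to 0.479 (median 0.127) over 45 pairs of groups, with all 45 above 0 and 32 over 0.1. The labels name nothing that same-numbered arrays share and not every pair was over 0.1, the criterion for pairing, so the block was kept as an alternative. What same-numbered arrays share was not tested. The block took the genes called in all for the whole retina to 2706 and changed no other count of members. With only the arrays compared, the average over tissues and the test between tissues give the same fit and were not run separately. Dark against light in the ganglion cell layer had no value without the chromosome Y arrays, nor in the inner plexiform layer without its light-adapted arrays; the dark-light comparison of layer enrichment had none in either case, and the average and the test between tissues then cover the other 4 tissues. *Fscn2* was not tested with the filter at log2 7. With 2 arrays a group, dim genes and small differences are the limit.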
